A study of Mus musculus with 2 samples.

Results

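Fetal liver and imprinted growth genes were examined in the liver of mice that carry 1 intact copy of Yap1. The group holds 10 genes, Afp, Gpc3, Dlk1, Meg3, Mest, Peg3, Plagl1, Cdkn1c, Grb10 and Igf2r, out of 18193 genes on the array. They were chosen by name: every probe set annotated to exactly 1 of these symbols was taken, 34 of 34945 probe sets with a single symbol, and the brightest of them, by its mean of both arrays, stood for its gene. The genotypes compared, on a C57BL/6 background, were Yap+/+ (wild type) and Yap+/- (heterozygous for Yap), both untreated and killed at postnatal day 30. Livers of 5 mice per genotype were pooled and each pool was read on 1 Affymetrix array, where a probe set combines several short probes of a transcript. Each value is therefore a single measurement, with no replicate, no error and no test of a difference between genotypes.

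Imprinted genes are expressed from 1 parental copy only, and many of them set the size of the fetus and placenta. Afp, Gpc3, Dlk1 and several imprinted growth genes are high in the fetal liver and are silenced there in the weeks after birth, in part by the transcription factors Zhx2 and Zbtb20. YAP, the product of Yap1, is a transcriptional co-activator that the Hippo pathway restrains, binds DNA through TEAD factors and acts on liver growth and bile ducts. In a whole liver, fewer cells of a type and less RNA per cell cannot be told apart.

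None of the 10 genes differed between the pools by as much as 0.32 on the log2 scale, the smaller of the thresholds used for counts (the larger was 2-fold). Grb10, an adaptor that restrains insulin and growth factor receptors, stood highest in Yap+/- relative to Yap+/+, at 1.19-fold. Igf2r, the receptor that clears insulin-like growth factor 2, stood lowest among the measured genes, at 1.10-fold lower. Genes whose log2 mean reached 6 are called measured. Among the 7 measured genes, 4 were higher and 3 lower in Yap+/-, with a median log2 difference (Yap+/- minus Yap+/+) of 0.0033. Over all 9299 measured genes the median was 0.00 and 7.04% differed by at least 0.32, so a count of 0 of 7 is near what that share gives and says nothing particular about these genes. At 2-fold the count was likewise 0, where the share over all measured genes was 0.323%. For scale, the differences of a gene's 2 brightest measured probe sets, set against each other in 3406 genes, had a robust SD (a median-based standard deviation) of 0.17, which does not cover the spread between mice or pools.

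**Figure D1:**
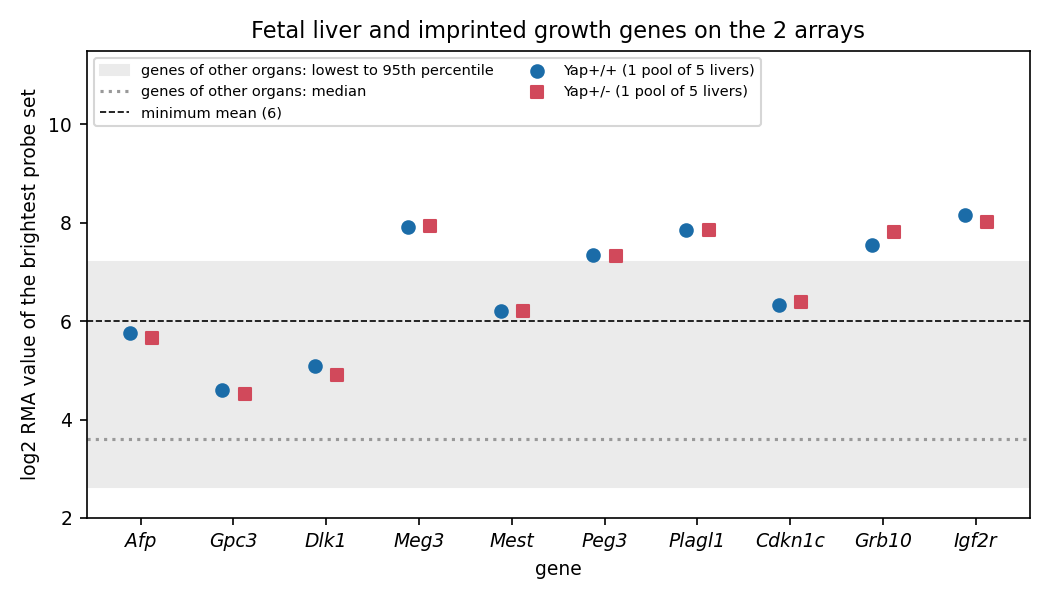
Log2 values of the brightest probe set of each of the 10 genes on the Yap+/+ array (circles) and the Yap+/- array (squares), 1 pool of 5 livers each. The grey band runs from 2.63 to 7.21, the lowest value and 95th percentile of probe sets for genes of other organs, the dotted line is their median of 3.60 and the dashed line is the minimum mean of 6. Each pair of symbols sits nearly level, and heights of different genes are not comparable.

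The regions before the start sites of these genes were read first, for their base composition and for motif letters. Promoters of 9 of the 10 genes, 13 in all, were taken from RefSeq on GRCm38.p6, each running from 250 bases before to 50 bases after a start site. Their median GC content was 61.3%, against 52.7% over all 32851 promoters, and their median number of CpG pairs, the sites of DNA methylation, was 13 against 7. The TEAD motif GGAATG, searched on both strands, occurred in 1 of the 13 (7.69%), that of Peg3, and in 14.7% of all promoters. The motif TGCCGC, which the imprint-keeping zinc finger protein ZFP57 reads when methylated, occurred in 5 of the 13 (38.5%), in 4 genes, and in 11.6% of all promoters. Of those 5, 2 are overlapping start sites of Mest that hold the same letters. TGCCGC holds a CpG pair, of which the member promoters have more, and the part of base composition in the ZFP57 share was not tested. The motifs did not overlap each other in any of the 13. The 250 bases before 4 start sites are printed 5′ to 3′ with either motif in capitals, in the orientation of the gene, chosen to show the CpG-poor promoter of the fetal gene Afp, the only TEAD match and examples with ZFP57 letters.
Afp (chr5:90490464-90490713, plus strand): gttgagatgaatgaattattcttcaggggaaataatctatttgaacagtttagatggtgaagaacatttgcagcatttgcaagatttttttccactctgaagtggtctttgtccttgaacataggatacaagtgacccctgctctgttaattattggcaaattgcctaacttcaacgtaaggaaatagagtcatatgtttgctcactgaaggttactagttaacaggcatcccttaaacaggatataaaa
Peg3 (chr7:6730420-6730669, minus strand): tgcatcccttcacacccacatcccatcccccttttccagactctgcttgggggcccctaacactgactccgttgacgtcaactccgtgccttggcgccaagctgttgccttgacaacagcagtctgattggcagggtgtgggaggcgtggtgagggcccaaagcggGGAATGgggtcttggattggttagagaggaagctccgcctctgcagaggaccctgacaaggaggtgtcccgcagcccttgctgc
Mest (chr6:30737800-30738049, plus strand): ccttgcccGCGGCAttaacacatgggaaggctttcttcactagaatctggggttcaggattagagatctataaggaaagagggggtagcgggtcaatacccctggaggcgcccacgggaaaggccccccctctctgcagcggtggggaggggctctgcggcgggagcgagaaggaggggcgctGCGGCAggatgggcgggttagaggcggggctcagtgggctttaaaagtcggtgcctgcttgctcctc
Meg3 (chr12:109540746-109540995, plus strand): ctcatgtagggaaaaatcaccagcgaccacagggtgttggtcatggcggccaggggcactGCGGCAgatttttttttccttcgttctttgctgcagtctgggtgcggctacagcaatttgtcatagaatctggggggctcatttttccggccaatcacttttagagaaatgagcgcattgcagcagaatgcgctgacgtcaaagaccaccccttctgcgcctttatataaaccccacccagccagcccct
The full Afp window of 300 bases held 3 CpG pairs and 40% GC. The Peg3 match starts 84 bases before the start site, the Mest matches 242 and 67 bases before it and the Meg3 match 190 bases before it. Plagl1 held a ZFP57 match 90 bases before its start site, and a start site of Grb10 held a match at base 25 after it. These matches describe letters in a window and were not tied to binding.

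The fetal liver markers read low in both genotypes. Afp encodes alpha-fetoprotein, the main plasma protein of the fetus. On its brightest probe set the values were 5.75 (Yap+/+) and 5.66 (Yap+/-). The other 4 Afp probe sets read between 3.31 and 4.97, and 4 of the 5 were lower in Yap+/-, by at most 0.24. Gpc3, a cell surface glypican of fetal liver and liver tumours, had a single probe set, at 4.60 in Yap+/+ and 4.51 in Yap+/-. Dlk1, a transmembrane Delta-like protein of hepatoblasts, read 5.09 and 4.91 on its brighter probe set and 4.34 and 4.27 on the other, in that order of genotype. All 3 genes were thus slightly lower in Yap+/-, with differences of -0.090, -0.085 and -0.18. The robust SD of the difference over 1000 probe sets of like brightness was 0.20, 0.21 and 0.21, so none of the 3 differences reached the local spread.

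Because no detection calls were used here, genes of other organs, such as sperm, eye, pituitary and muscle genes, served as a guide to background. Their 51 probe sets for 29 genes had a median of 3.60, a 95th percentile of 7.21 and a highest value of 9.40, and 5 of the 29 genes, or 17.2%, had a mean of at least 6. A mean of 6 is therefore no proof of expression on this array. Afp, Gpc3 and Dlk1 lay under the 95th percentile and under 6 on both arrays, so these data do not show any of them above background. Of the 10 genes, 5 lay above the 95th percentile of the guide on both arrays: Meg3, Peg3, Plagl1, Grb10 and Igf2r. The percentile is over all 51 guide probe sets, whereas each member is shown by its brightest one, so this count favours the members. The brightest probe set of the guide gene Prm1 read 7.81 in Yap+/+ and 7.87 in Yap+/-, above Peg3 and Grb10 on both arrays. Mest and Cdkn1c were measured but lay under that percentile, and no member lay above the highest guide value.

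Among the genes of the Dlk1 and Meg3 domain, the noncoding RNA Meg3 could be followed on 11 probe sets. Meg3 is expressed from the maternal copy, and Dlk1 beside it from the paternal one. The brightest gave 7.92 in Yap+/+ and 7.94 in Yap+/-. The next read 7.11 on both arrays, and the 3 others with a mean above 6 were lower in Yap+/-, from 6.99 to 6.83, from 6.62 to 6.40 and from 6.27 to 6.24. Over the 11, 5 were higher, 5 lower and 1 equal. The widest difference, 0.41 from 3.42 in Yap+/+ to 3.83 in Yap+/-, came from the dimmest of them, near the guide median. The brightest Meg3 probe set has a suffix that marks probes shared with other sequences, as has that of Plagl1, so both readings are uncertain to that extent. The brighter Dlk1 probe set also has a suffix for shared targets, and the other Dlk1 probe set, without a suffix, differed by -0.074.

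Mest, Peg3 and Plagl1 are expressed from the paternal copy. Mest, a hydrolase of mesoderm and growing adipose tissue, had a single probe set, at 6.22 in Yap+/+ and 6.21 in Yap+/-. Peg3, a large zinc finger protein of fetal growth and maternal behaviour, read 7.35 and 7.33 on its brightest probe set and 6.48 and 6.44 on the next. A dimmer Peg3 probe set departed from these. It went from 4.60 in Yap+/+ to 3.75 in Yap+/-, a difference of -0.85 where the local robust SD was 0.19, the largest difference among the 34 probe sets. Both of its values lay under the guide's 95th percentile and neither brighter Peg3 probe set shared the difference. Plagl1, a zinc finger transcription factor at the centre of an imprinted gene network, read 7.86 on both arrays. Its other 2 probe sets read between 3.19 and 4.55 and went in opposite directions, by 0.11 and -0.10.

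Among the 34 probe sets, 2 differed by at least 0.32, the dim Meg3 probe set (higher) and the dim Peg3 probe set (lower). Of all 34945 probe sets with a single symbol 9.08% did so, 4.30% higher and 4.77% lower. Of the 13 member probe sets with a mean of at least 6, 0 did, against 8.29% of all such probe sets, and 9 of the 13, or 69.2%, had a difference smaller than 0.1. Over all 14437 probe sets with such a mean the share of small differences was 48.4%. The 13 belong to the 7 measured genes, several of them to Meg3, so they are not independent readings.

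**Figure D2:**
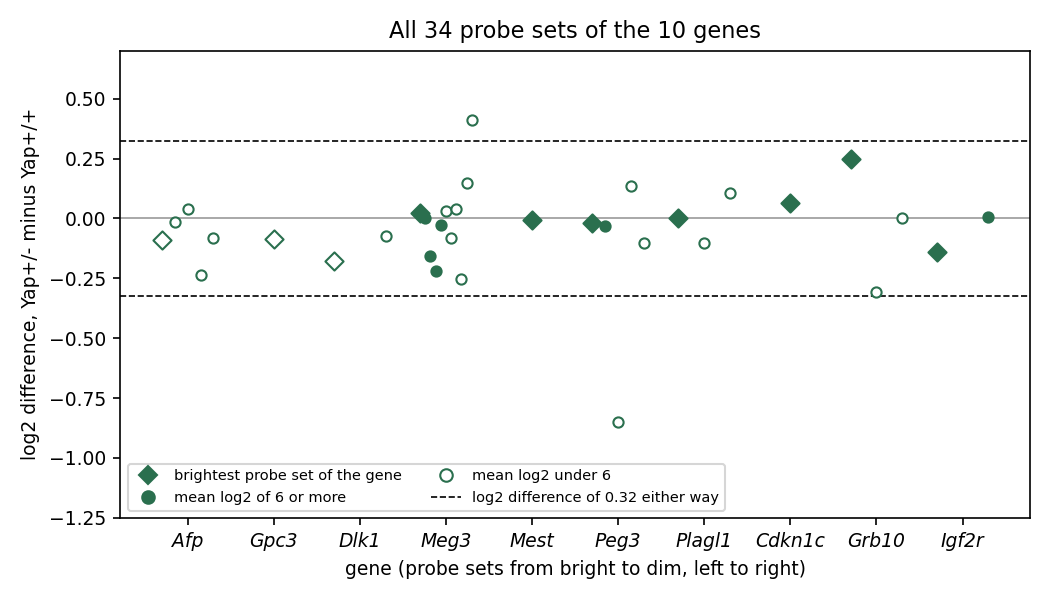
Log2 difference, Yap+/- minus Yap+/+, of all 34 probe sets of the 10 genes, from bright to dim within each gene. Diamonds are the probe sets that stand for the gene, filled symbols have a mean of at least 6 and dashed lines mark a difference of 0.32 either way. The points beyond the lines, Meg3 at 0.41 and Peg3 at -0.85, are both open symbols.

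Cdkn1c, Grb10 and Igf2r restrain growth. Cdkn1c, the imprinted cyclin-dependent kinase inhibitor p57, was at 6.33 in Yap+/+ and 6.39 in Yap+/-, on a single probe set. Its relative Cdkn1b, p27, read 8.45 and 8.42, and Cdkn1a, p21, read 6.87 and 7.42, a difference of 0.55 on the brighter of 2 probe sets and of 0.12 on the other. Grb10 read 7.56 in Yap+/+ and 7.80 in Yap+/-, a difference of 0.25 where the local robust SD was 0.16. The other 2 Grb10 probe sets did not share it: 1 went from 5.27 to 4.97, a difference of -0.31, and 1 read 4.39 on both arrays. All 3 carry the suffix for several transcripts of a gene, and the array gives no further detail on them here. The liver relatives of Grb10 read 10.14 and 10.06 for Grb14 and 9.36 and 9.51 for Grb7. Among all 9 measured relatives of the 10 genes, Cdkn1a was the only one past 0.32, 3 were higher and 5 lower, and the median was -0.022.

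Igf2r encodes the receptor that takes up insulin-like growth factor 2 for breakdown and carries lysosomal enzymes by their mannose 6-phosphate tag. The brighter probe set had 8.16 in Yap+/+ and 8.02 in Yap+/-, a difference of -0.14, and 7.44 and 7.45 on the other. Its growth factor, Igf2, which is fetal and imprinted, was under the minimum at 5.54 and 5.42. M6pr, the smaller mannose 6-phosphate receptor, read 10.35 and 10.27. Of 16 measured genes of mannose 6-phosphate tagging and lysosomal sorting, 0 differed by 0.32, 9 were higher and 7 lower, and the median was 0.0030.

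**Figure D3:**
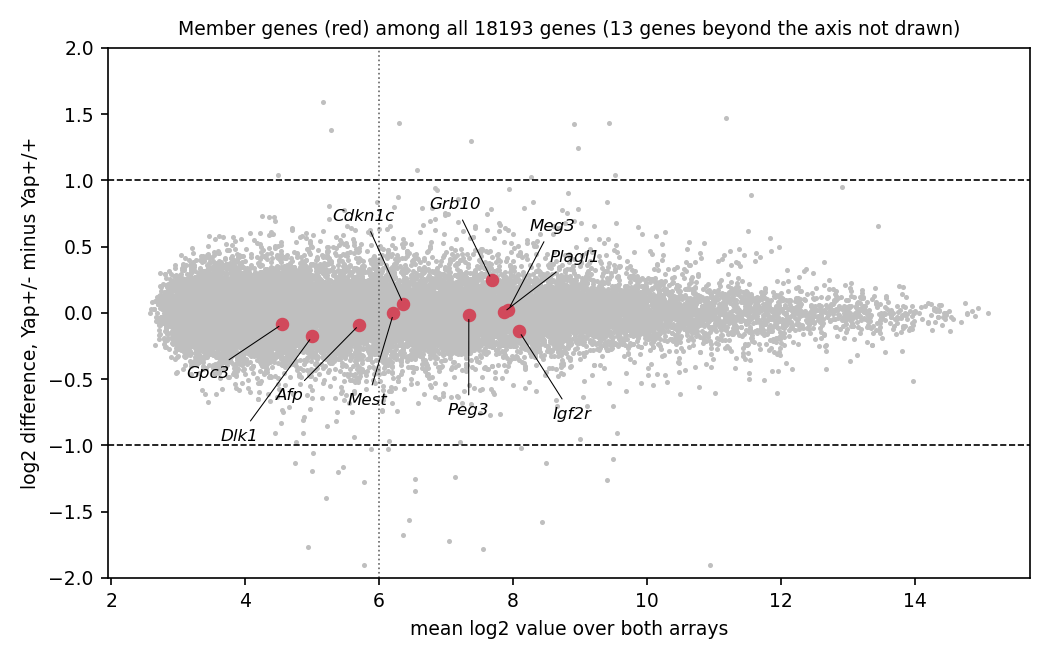
Log2 difference, Yap+/- minus Yap+/+, against mean log2 value over both arrays for all 18193 genes, with the 10 genes in red. Dashed lines mark 2-fold, the dotted line marks the minimum mean of 6, and 13 genes beyond a difference of 2 are not drawn. All 10 lie within the body of the cloud, between -0.18 and 0.25.

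Other genes of fetal liver and of imprinted domains were then read from lists, which were drawn up with earlier results of these data known. Over all measured genes, 7.04% differed by at least 0.32. Of 18 other fetal liver genes with a probe set, 7 were measured, and 3 of these differed by at least 0.32, 1 higher and 2 lower, with a median of 0.096. Cd24a, a surface glycoprotein of progenitors, bile ducts and blood cells, read 8.44 in Yap+/+ against 6.65 in Yap+/-. The lower value was under the guide's 95th percentile, so the fold of 3.45 is not exact, and its other 2 probe sets were lower too, with log2 differences of -1.87 and -1.28. Scd2, the stearoyl-CoA desaturase of early liver, was nominally 1.30-fold lower on its brightest probe set, with both values under that percentile. Its other 2 probe sets, which were not measured, differed by 0.038 and -0.068. Below, too, a fold with a value under the guide's 95th percentile is called nominal or not exact. Acsl4, a fatty acyl-CoA ligase, was 1.26-fold higher on its brightest probe set, and its other 2 measured ones differed by 0.30 and -0.43. The RNA-binding oncofetal gene Lin28b read 2.67 and 2.73, Hmga2 4.01 and 4.10 and Igf2bp1 4.64 and 4.44 in Yap+/+ and Yap+/-, all under the guide's 95th percentile. Igf2bp3, a relative of Igf2bp1, was above it, at 8.03 and 8.13. Among the unmeasured genes of this list Bex1 had the widest difference, from 4.85 in Yap+/+ to 5.66 in Yap+/-, both under that percentile. Spink1 and Cdh17 were higher by 0.31 each, and the widest lower difference was that of Igf2bp1, at -0.21.

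Of 43 other imprinted genes with a probe set, 24 were measured, 12 higher and 12 lower, with a median of -0.0081. Of the 24, 2 differed by at least 0.32. Ddc, aromatic amino acid decarboxylase, which lies next to Grb10, read 10.24 in Yap+/+ and 9.77 in Yap+/-, 1.38-fold lower. Ppp1r9a, an actin-binding scaffold, was nominally 1.44-fold higher at 6.21 and 6.73, while its other measured probe set differed by -0.11. Gnas, a G protein subunit, read 12.17 and 12.14, the amino acid transporter Slc38a4 12.71 and 12.69, and the tetraspanin Cd81 11.93 and 11.73. Another 5 measured probe sets list a gene of this list together with a further symbol and are not in these counts. Of those 5, 2 differed by at least 0.32, and they are given by probe set in the closing section.

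The chromosomal neighbours of the 10 genes were taken as the 2 protein-coding or member genes on either side in the RefSeq order. Of 38 such neighbours, 12 were measured, 6 higher and 5 lower, with a median of 0.0074. Ddc was the only one of the 12 past 0.32, and Cobl, on the other side of Grb10, read 7.14 in Yap+/+ and 7.36 in Yap+/-. Beside Afp, the albumin relatives Alb and Afm were close to level, Alb at 15.09 on both arrays and Afm at 13.04 and 13.02. The highest value of the table is 15.15, where a difference would hardly show. Albfm1, the next albumin relative, read 9.25 in Yap+/+ and 9.56 in Yap+/-, the largest positive difference among the 12. Gpc4, the glypican next to Gpc3, read 9.53 and 9.70, and Copg2, next to Mest, 7.73 and 7.57.

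Factors that silence or drive Afp were read next. Zhx2, which silences Afp and Gpc3 after birth, had a single probe set, at 5.94 in Yap+/+ and 6.12 in Yap+/-. Zbtb20, the zinc finger repressor of Afp, read 10.30 and 10.34, and its 9 measured probe sets differed by between -0.20 and 0.044. Of 14 measured factors 8 were higher and 6 lower, and 4 differed by at least 0.32, against 7.04% of all measured genes. Foxa3, a pioneer factor of hepatocytes, was 1.39-fold higher and Cebpb, a leucine zipper factor of the acute phase, 1.31-fold higher, with a difference of 0.16 on its other measured probe set. Onecut1, a factor of hepatoblasts and bile ducts, was nominally 1.52-fold lower and the orphan nuclear receptor Nr2f2 was 1.38-fold lower. The difference of Nr2f2 rests on its brightest probe set, since 2 other measured ones differed by 0.066 and -0.021.

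Genes that keep imprints showed 1 of 14 past 0.32, 7 higher and 6 lower, with a median of 0.0093. Arid4a, a chromatin factor at imprinted domains, was the 1 past 0.32. It read 6.27 in Yap+/+ and 6.60 in Yap+/-, both under the guide's 95th percentile. Its other probe sets, with means under 6, differed by 0.17 and 0.032. The maintenance methyltransferase Dnmt1 read 7.95 and 7.94, the corepressor Trim28 9.96 and 9.89 and the histone methyltransferase Ezh2 6.77 and 6.72. Zfp57 itself read 5.21 and 5.07, under the guide's 95th percentile.

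A list of growth factor signalling genes, which also holds hedgehog and Notch pathway genes, showed 6 of 14 measured genes past 0.32. They were 3 in each direction, and the median of the list was 0.096. The hedgehog receptor gene Ptch1 was among the 3 higher, at 1.30-fold. Over all measured genes the share was 7.04%. The list was drawn up with earlier results of these data known, so the count is no finding about any pathway. Egfr, the epidermal growth factor receptor, was 1.34-fold higher on its brightest probe set, with differences of 0.53, 0.16 and 0.089 on its other 3 measured ones. Its probe sets with a mean under 6 differed by -0.81, -0.16 and 0.027, the first of them from 6.33 in Yap+/+ to 5.52 in Yap+/-. Igfbp2, a binding protein for insulin-like growth factors, was 1.30-fold higher. Irs2, the insulin receptor substrate, was nominally 1.48-fold lower. Igfbp1, which insulin represses, was 1.29-fold lower. The insulin receptor Insr read 10.12 and 10.34 and Igf1 13.02 and 13.14.

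**Figure D4:**
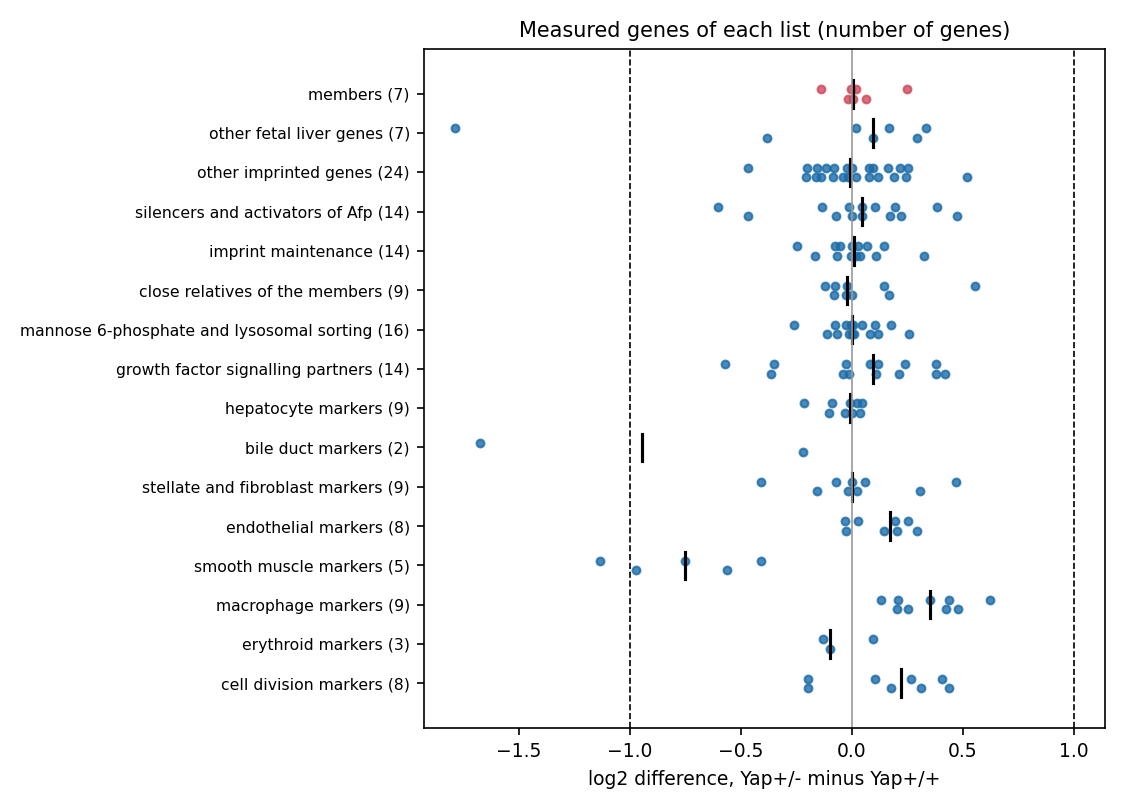
Log2 differences, Yap+/- minus Yap+/+, of the measured genes of each list, 1 point per gene, with the median as a black bar and 2-fold as dashed lines. The 7 measured member genes (red) lie between -0.14 and 0.25, macrophage markers lie to the right and smooth muscle markers to the left.

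Several facts of the arrays as a whole stand beside these values. Yap1 itself was at 9.40 in Yap+/+ and 9.24 in Yap+/- on its brighter probe set. On the other it was at 6.01 and 5.77, under the guide's 95th percentile. The position of either probe set relative to the disrupted part of the gene is not known here. The excess of 3-prime over 5-prime signal in control transcripts, a mark of RNA or labelling quality, was 0.20 to 0.22 larger in Yap+/- for beta-actin, Gapdh and pyruvate carboxylase. All 9 measured hepatocyte markers differed by less than 0.32, and the labelled tissue showed its defining genes at 12.07 or above on both arrays. All 9 macrophage markers were higher in Yap+/-, with a median of 0.35, led by the scavenger receptor Marco at 1.54-fold and Cd68 at nominally 1.39-fold. The summed linear level of these macrophage markers was 8614 in Yap+/+ and 10878 in Yap+/-. All 5 measured smooth muscle markers were lower, with a median of -0.75, led by Acta2 at 2.19-fold and Myl9 at nominally 1.96-fold, and their summed linear level was 1200 in Yap+/+ and 651 in Yap+/-. Of the bile duct markers, 2 were measured, Prom1 at 8.76 in Yap+/+ and 8.54 in Yap+/-, and Muc1 at 7.19 and 5.51. The lower Muc1 value was under the guide's 95th percentile, so no exact fold is given. Krt19, at 6.73 and 4.83, and Tspan8, at 5.91 and 4.51, had means under 6 and are not counted. For Krt19 the low Yap+/- value took the mean under 6. Sox9, also not measured, was alone in being higher, at 5.56 and 5.81. Stellate cell and fibroblast markers were split, 5 higher and 4 lower with a median of 0.00050. They ran from Dpt at nominally 1.38-fold higher to Des at nominally 1.33-fold lower. Higher values were found for 6 of 8 endothelial markers (median 0.17), 1 of 3 erythroid markers (median -0.099) and 6 of 8 cell division markers (median 0.22). The cell division markers were led by Birc5 at nominally 1.36-fold and Ube2c at 1.32-fold. The part of these cell types and of RNA quality in the values of the 10 genes was not tested.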

How the data were processed

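The authors deposited log2 probe set values for 2 arrays, made per the submitters' processing notes with RMA (background correction, quantile normalisation and probe summary) and Partek 6.5, with settings not given in the sources used here. Sorted, the 2 columns differed by at most 0.047, so an overall difference in RNA between pools would largely be removed. Symbols came from the platform annotation, and 932 probe sets with several symbols and 9160 with none were not named. The brightest probe set stood for a gene, and genes with a log2 mean of 6 or more were called measured. The difference is Yap+/- minus Yap+/+. With 1 array per genotype no test was made, genes were counted at a log2 difference of 0.32 and at 2-fold, and the number of arrays limits precision. Counting at 2-fold was tested on simulated data with planted differences larger than 2-fold and a smaller spread than these arrays have. Counting at 0.32 was not tested in that way. Members and lists were chosen with earlier results of these data known. The genes named are the members, Igf2, Zhx2, Zbtb20, up to 2 genes per direction of each list past 0.32, and neighbours, relatives and further list genes of known role chosen after their values were seen; 1 further gene planned by name had only a probe set with 2 symbols. Alternatives covered the choice of probe set, normalisation, filter, threshold and 64 added on the linear scale. Computations ran in Python 3.11.15 with pandas 2.3.3, numpy 2.4.6, matplotlib 3.10.9 and, for lowess, statsmodels 0.14.6.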

Additional observations from a re-analysis of the deposited data

Results flagged for a closer look

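Probe set 1448194_a_at lies outside the comparison because its annotation lists 2 symbols, so no gene is named for it. One of those symbols belongs to the list of other imprinted genes. It read 6.07 in the Yap+/+ control and 7.60 in Yap+/-, a log2 difference of 1.54 or 2.90-fold higher, where the local robust SD was 0.18. Of 480 measured probe sets with several symbols, it was the only one at least 2-fold higher in Yap+/-, and 1 was at least 2-fold lower. The Yap+/+ value lies under the 95th percentile of the genes of other organs, so the fold is not exact, and there is no replicate.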

How the results depend on the processing

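Of 91 values recomputed under the alternatives, 87 moved by less than the disagreement between probe sets of a gene (0.17) or, for counts, stayed within 1.5 times. Part of these could not move. The median of all measured genes was already 0, so centring on it changed nothing. Gpc3, Mest and Cdkn1c have a single probe set, so the choice of probe set could not change them. The 87 is therefore no measure of robustness. The count of member genes past a difference of 0.32 or past 2-fold was 0 under every alternative run, over the measured genes or, with no filter, over all 10. The median difference lay between -0.012, that of all 10 genes with no filter, and 0.0099. Grb10 moved most: with the mean of its 3 probe sets its difference was -0.019 in place of 0.25. The 2 member probe sets past 0.32 became 0 with 64 added on the linear scale, 0 with a minimum mean of 6, and 1 at a 1.5-fold threshold; both have a mean under 6. Preferring probe sets without a suffix, which every member but Grb10 has, left Plagl1 under the minimum, at a difference of -0.10, and 6 measured members. No paired analysis was possible because each genotype has 1 array. Signal near background limits Afp, Gpc3 and Dlk1 most.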

Other observations

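A further probe set with 2 symbols, 1 of them in the list of other imprinted genes, 1421063_s_at, read 6.41 in Yap+/+ and 5.65 in Yap+/-, a log2 difference of -0.76. The other 3 measured probe sets of that kind differed by -0.026 to -0.071. A single probe set annotated to a member and another gene together read 4.08 and 3.88.

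Exactly equal values on both arrays, as for 1 probe set each of Meg3 and Grb10, occurred in 2136 probe sets, or 4.74%.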
